A study of Mus musculus with 4 samples.

Results

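The collagens, the enzymes that crosslink them, and a set of dermal matrix and fibroblast genes were examined in cultured mouse keratinocytes with and without Cre deletion of Glut1 (Slc2a1), the main glucose transporter of these cells. The genes were chosen by name: every gene whose symbol has the form of a numbered collagen chain (for example Col1a1), the lysyl oxidases Lox and Loxl1 to Loxl4, Sparc, Fn1, Fbln1, Fbln2, Dcn, Lum, Postn, Ddr1, Ddr2, Pdgfra, Pdgfrb and Vim. Of these, 60 genes had an array row with a single gene symbol, among 22180 genes tested, and Loxl2 was the 1 named gene without such a row. The cells were primary keratinocytes, the epithelial cells of the epidermis, from C57BL/6J mice aged 1 week. Wild-type (WT) cells were Glut1_fl/fl, with floxed alleles and no Cre, and Glut1-deficient cells were Glut1_fl/fl K14 Cre, in which Cre is driven by the keratin 14 promoter of basal keratinocytes and not of fibroblasts. There were 4 mice of each genotype; cells were moved at equal number after 3 days to collagen-coated plates, in low-calcium KSFM (0.05 mM calcium), and harvested 1 day later. The lysates of 2 plates were pooled for each array, giving 2 arrays per genotype, and a lysate held 1500000 WT or 1000000 Glut1-deficient cells. Values are log2 intensities, on which a difference of 1 is a factor of 2. The number of arrays limits the precision.

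Collagens are trimeric matrix proteins. Types I, III and V form the fibrils of the dermis, types IV, VII, XVII and XVIII belong to the basement membrane zone on which keratinocytes sit, and type VI forms beaded filaments. Lysyl oxidases oxidise lysine side chains so that collagen and elastin molecules can be joined covalently. Dermal fibroblasts make most of the fibrillar collagens and the small proteoglycans decorin and lumican, whereas basal keratinocytes themselves make the chains that anchor the epidermis, such as collagen VII and collagen XVII. For that reason 23 of the genes were listed as fibroblast genes and 5 as epidermal genes (Col17a1, Col7a1, Col4a5, Col4a6 and Ddr1), and the other 32 belong to neither list.

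On the Glut1-deficient arrays the collagen receptor Ddr2, the crosslinking enzymes Lox and Loxl4 and the matrix glycoprotein Sparc rose, and the network collagen Col8a1 fell. These 5 of 60 genes (8.33%) passed limma's test (Benjamini-Hochberg adjusted p under 0.05 over all 22180 genes), against 2.84% of all genes tested. The 4 rises stand beside 1.79% of all genes that rose, and the 1 fall beside 1.05% that fell. The 55 others did not pass. At an adjusted p under 0.1 the count was 16 (26.7%, against 8.36% of all genes), and at an unadjusted p under 0.05 it was 27 (45.0%, against 22.2%). An absolute log2 fold change of at least 1 was reached by 10 of the 60 (16.7%), 9 upward and 1 downward, against 1.62% of all genes. Both Glut1-deficient arrays lay above both WT arrays for 24 genes (40.0%, against 25.5% of all genes) and below both for 14 (23.3%, against 27.7%), where 53.2% of all genes lay wholly on 1 side. Of the 60, 41 had a mean level above the median of all genes, and the 5 that passed were among them. Of all genes above that level, 5.13% passed in the same fit and 2.95% reached an absolute log2 fold change of 1. The median log2 fold change was 0.07 for the 60 genes and -0.01 for all genes.

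With any 1 of the 4 arrays dropped, a genotype has 1 array left, so calls lost there say nothing about the 5. The log2 fold changes ran from 2.28 to 2.86 for Ddr2, 1.98 to 2.63 for Lox, 1.16 to 1.33 for Sparc, 0.85 to 1.13 for Loxl4 and -1.50 to -1.31 for Col8a1. The count of 5 was 21 (15 rises, 6 falls) when the prior variance followed intensity, where 12.0% of all genes passed. It was 19 of 41 (14 rises, 5 falls) among genes above the median level, where 21.0% passed. The labels do not tie each pool to particular mice, so the spread behind a p-value is that between pools of plates and may be partly technical. The deleted gene Slc2a1 read 11.13 and 11.05 on the WT arrays and 11.01 and 11.01 on the Glut1-deficient arrays. The difference of -0.07 did not pass (limma adjusted p = 0.675). Neither the deleted exons nor the probe positions are known here, so this row does not check the genotype labels. Of the keratinocyte markers, Krt14, the basal keratin, was at 12.54 to 12.56 and at 12.15 to 12.21, Perp, a desmosomal membrane protein, at 11.86 to 11.88 and at 12.14 to 12.18, and Dsp, desmoplakin, at 11.62 to 11.72 and at 11.66 to 11.71, on the WT and the Glut1-deficient arrays respectively. They are the 3 brightest of 10, of which 5 had positive and 5 negative log2 fold changes. In pooled RNA of this kind, more cells of a type and more RNA per cell cannot be told apart. The summed linear intensity of 15 fibroblast markers outside the gene set was 758 to 882 on the WT arrays and 1796 to 2520 on the Glut1-deficient arrays, and its part in the rises of Ddr2, Lox and Sparc, which fibroblasts express, was not tested. The brightest of them, Crabp1, made up a large part of that sum, and the other 14 summed to 412 to 442 and to 685 to 939.

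**Figure D1:**
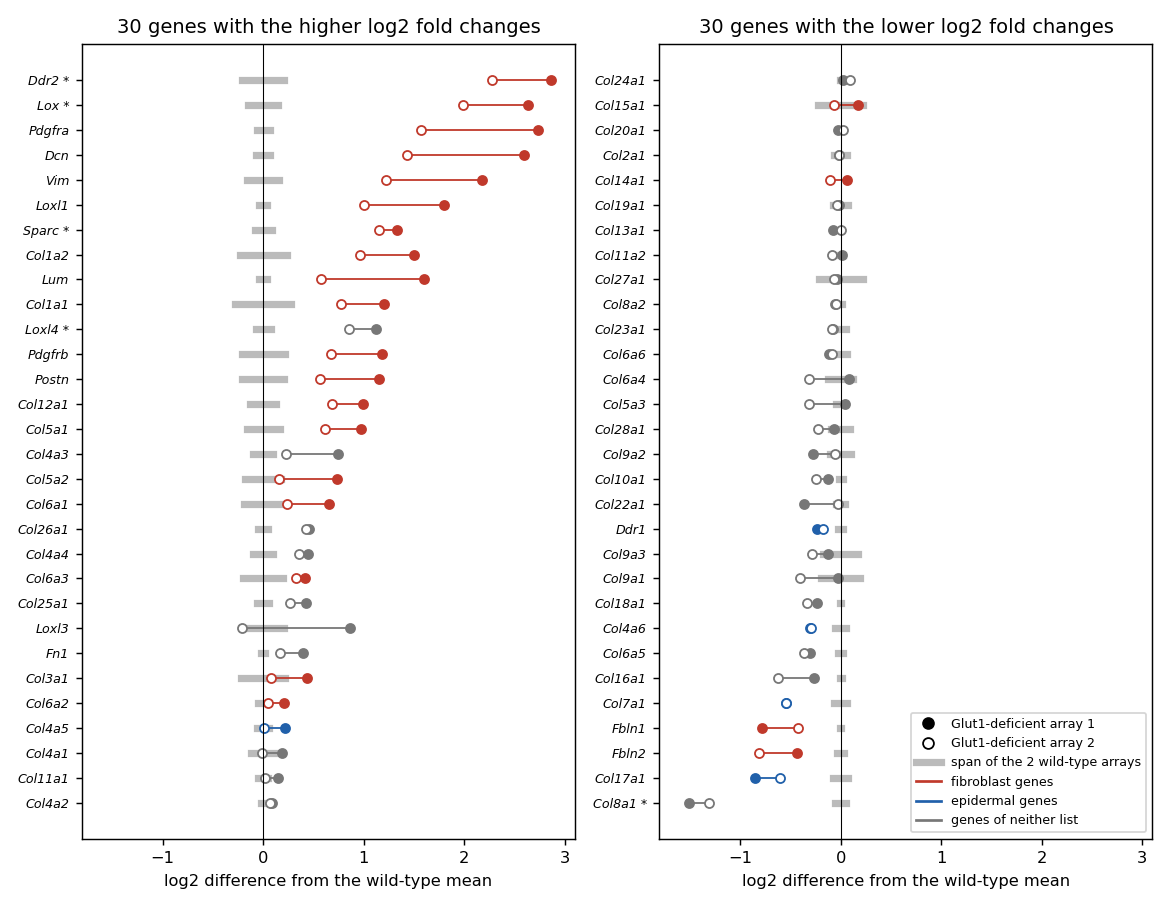
Difference of each Glut1-deficient array from the WT mean for all 60 genes (log2, horizontal axis), ordered by log2 fold change; filled circles are array 1, open circles array 2, grey bars the span of the WT arrays, and asterisks mark the 5 genes that passed limma's test. Red fibroblast genes fill most of the upper left, blue epidermal genes lie at or below 0 except Col4a5, and Col8a1 lies lowest.

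The promoter regions of 4 of the 5 genes that passed are shown to set the regulatory sequences of rising and falling genes side by side. The RefSeq promoter table of GRCm38.p6 held 44 of the 60 genes. It held Sparc, Ddr2 and Loxl4, which rose, and Col8a1, which fell, and not Lox; Col1a2 and Col17a1 are added as a fibroblast and an epidermal collagen. Each line is the 250 bases before the annotated start of transcription, 5′ to 3′ on the strand of the gene. Capitals mark a CCAAT box, a TATA box (the letters TATAAA) or a GC box (the letters GGGCGG) on either strand, with overlapping matches counted separately. The windows are chr11:55420081-55420330 (minus strand) for Sparc, chr1:170088945-170089194 (minus) for Ddr2, chr19:42612807-42613056 (minus) for Loxl4, chr16:57754738-57754987 (minus) for Col8a1, chr6:4505368-4505617 (plus) for Col1a2 and chr19:47692043-47692292 (minus) for Col17a1.
Sparc: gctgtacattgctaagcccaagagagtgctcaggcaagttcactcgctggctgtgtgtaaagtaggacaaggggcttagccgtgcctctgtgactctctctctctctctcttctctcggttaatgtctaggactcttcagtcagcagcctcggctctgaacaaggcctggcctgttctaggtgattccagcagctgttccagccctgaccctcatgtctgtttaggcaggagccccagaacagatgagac
Ddr2: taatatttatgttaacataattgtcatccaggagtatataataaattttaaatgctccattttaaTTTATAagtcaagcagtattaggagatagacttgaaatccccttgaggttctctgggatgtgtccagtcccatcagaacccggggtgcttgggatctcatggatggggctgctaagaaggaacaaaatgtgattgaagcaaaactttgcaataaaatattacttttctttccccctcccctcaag
Loxl4: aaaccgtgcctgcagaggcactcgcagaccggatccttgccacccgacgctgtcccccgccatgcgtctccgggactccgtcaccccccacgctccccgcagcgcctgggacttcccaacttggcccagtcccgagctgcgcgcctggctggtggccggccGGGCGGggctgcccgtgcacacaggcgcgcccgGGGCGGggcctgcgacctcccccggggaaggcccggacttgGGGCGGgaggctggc
Col8a1: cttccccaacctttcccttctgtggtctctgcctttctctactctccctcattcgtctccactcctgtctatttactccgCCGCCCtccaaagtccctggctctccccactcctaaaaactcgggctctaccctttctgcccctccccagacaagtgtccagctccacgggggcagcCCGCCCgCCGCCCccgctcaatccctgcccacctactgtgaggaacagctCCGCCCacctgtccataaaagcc
Col1a2: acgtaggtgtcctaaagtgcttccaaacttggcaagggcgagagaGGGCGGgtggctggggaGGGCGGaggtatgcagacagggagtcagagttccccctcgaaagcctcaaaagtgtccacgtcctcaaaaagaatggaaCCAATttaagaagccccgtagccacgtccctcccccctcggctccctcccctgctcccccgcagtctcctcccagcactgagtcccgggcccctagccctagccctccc
Col17a1: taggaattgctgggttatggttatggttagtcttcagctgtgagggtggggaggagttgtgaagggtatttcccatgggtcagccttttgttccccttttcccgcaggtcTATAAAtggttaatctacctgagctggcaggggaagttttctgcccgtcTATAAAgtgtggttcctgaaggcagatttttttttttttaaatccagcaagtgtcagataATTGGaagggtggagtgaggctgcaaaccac

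The 3 promoters of genes that rose had no marked motif in common. Loxl4 held 3 GC boxes, which begin 89, 56 and 15 bases before the start, and Col8a1, which fell, held 4. Sparc held none of the 3 motifs, and Ddr2 held 1 TATA box on the opposite strand, 185 bases before the start. Col1a2 held 2 GC boxes and a CCAAT box 109 bases before the start, and Col17a1 held 2 TATA boxes and a CCAAT box on the opposite strand, 31 bases before the start. The 44 genes in the table had 52 promoter windows, as some genes have several. A GC box was present in 28 of the 52 (53.8%), against 32.7% of all 32851 windows of that length. Among the 17 windows of fibroblast genes, 6 held a GC box. Over the 52 windows, a CCAAT box was present in 26.9% against 33.8%, and a TATA box in 15.4% against 12.4%. An E-box (CANNTG), the motif that basic helix-loop-helix factors such as Twist2 recognise, was present in 51.9% against 66.2%, an AP-1 site (TGANTCA) in 3.85% against 6.75%, and a TEAD site (GGAATG) in 7.69% against 12.6%. A match describes letters in the window and is not a measured binding site.

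Among the receptors, the largest log2 fold change belonged to Ddr2, a receptor tyrosine kinase of mesenchymal cells that is activated by fibrillar collagen. Ddr2 read 5.18 and 4.76 on the WT arrays and 7.83 and 7.25 on the Glut1-deficient arrays. The groups were separated by more than 2 log2 units, whereas arrays of the same genotype differed by 0.42 and 0.58. Ddr2, whose promoter held 1 marked motif, rose 5.94-fold (log2 fold change 2.57, SE 0.243, limma adjusted p = 0.0211). Its epithelial counterpart Ddr1, which also binds collagen, read 9.01 and 8.97 on the WT arrays and 8.76 and 8.82 on the Glut1-deficient arrays. Both were below WT, and the difference of -0.20 (95% interval -0.43 to 0.02) did not pass. Pdgfra, the PDGF receptor that marks dermal fibroblasts, read 5.97 and 5.84 on the WT arrays against 8.64 and 7.47. All Glut1-deficient values of Pdgfra were above all WT values, but the Glut1-deficient arrays differed by 1.16 from each other and the log2 fold change of 2.15 (SE 0.381) did not pass (limma adjusted p = 0.0608). Pdgfrb, the PDGF receptor of pericytes and fibroblasts, read 5.11 and 5.53 against 6.50 and 6.00, with a log2 difference of 0.93 (limma adjusted p = 0.105).

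All 4 lysyl oxidase genes tested had positive log2 fold changes, and 2 of them rose. Lox, the founding enzyme of the family, read 5.81 and 5.51 on the WT arrays and 8.29 and 7.64 on the Glut1-deficient arrays. It rose 4.95-fold (log2 fold change 2.31, SE 0.241, limma adjusted p = 0.0259). Loxl4 read 5.50 and 5.65 against 6.70 and 6.43, a narrower spread, and rose 1.99-fold (SE 0.129 on the log2 scale, limma adjusted p = 0.0368). Loxl1, which is needed for elastic fibre assembly, read 5.26 and 5.18 against 7.02 and 6.22. Its groups did not overlap, and its log2 fold change of 1.40 (SE 0.266) did not pass (limma adjusted p = 0.0687). Loxl3 read 5.30 and 4.89 against 5.96 and 4.89, so that array 1 of the Glut1-deficient genotype was above the WT arrays and array 2 just below both of them. For Loxl2, a pair of rows is shared with another gene symbol, and neither enters the counts; their log2 fold changes were 0.05 and 0.31.

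Of the 7 matrix glycoproteins and proteoglycans, 1 rose (14.3%, against 1.79% of all genes), 0 fell and 6 did not pass. Both Glut1-deficient arrays lay above both WT arrays for 5 (71.4%, against 25.5% of all genes) and below both for 2 (28.6%, against 27.7%). Sparc, a collagen-binding glycoprotein, read 7.36 and 7.20 on the WT arrays and 8.61 and 8.44 on the Glut1-deficient arrays. The Glut1-deficient arrays differed by 0.17, the smallest such gap among the 4 genes that rose, and Sparc rose 2.37-fold (log2 fold change 1.24, SE 0.113, limma adjusted p = 0.0211). Dcn (decorin) and Lum (lumican), small leucine-rich proteoglycans that bind collagen fibrils, had groups that did not overlap but wide gaps between the Glut1-deficient arrays. Dcn read 5.65 and 5.52 against 8.18 and 7.01 (log2 fold change 2.01, SE 0.382, limma adjusted p = 0.0687). Lum read 2.47 and 2.40 against 4.03 and 3.01 (log2 fold change 1.08, SE 0.336, limma adjusted p = 0.158). Its values all lay below the all-gene median of 4.76, where an array gives no exact fold. Postn (periostin), a matricellular protein of fibroblasts, read 5.74 and 5.32 against 6.68 and 6.10, and Fn1 (fibronectin), which cultured keratinocytes also secrete, read 10.38 and 10.34 against 10.76 and 10.53. Neither passed, and the log2 fold change of Fn1 was 0.28.

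The fibulins were the 2 below WT. Fbln1 (fibulin 1), a basement membrane and elastic fibre glycoprotein, read 8.00 and 7.98 on the WT arrays and 7.21 and 7.56 on the Glut1-deficient arrays. Fbln2 (fibulin 2) read 9.23 and 9.30 against 8.83 and 8.46. Both Glut1-deficient values were below both WT values for each gene, with log2 fold changes of -0.61 (limma adjusted p = 0.0975) and -0.62 (limma adjusted p = 0.101), and neither passed. These were the 2 of 23 genes on the fibroblast list (8.70%, against 27.7% of all genes) whose Glut1-deficient values lay wholly below WT. Vim, the mesenchymal intermediate filament vimentin, read 8.38 and 8.07 against 10.40 and 9.44, a log2 fold change of 1.70 (SE 0.33, limma adjusted p = 0.0722). A second, dimmer row of Vim read 6.33 and 6.23 against 8.20 and 7.34, with the same order of the arrays and a log2 fold change of 1.49.

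**Figure D2:**
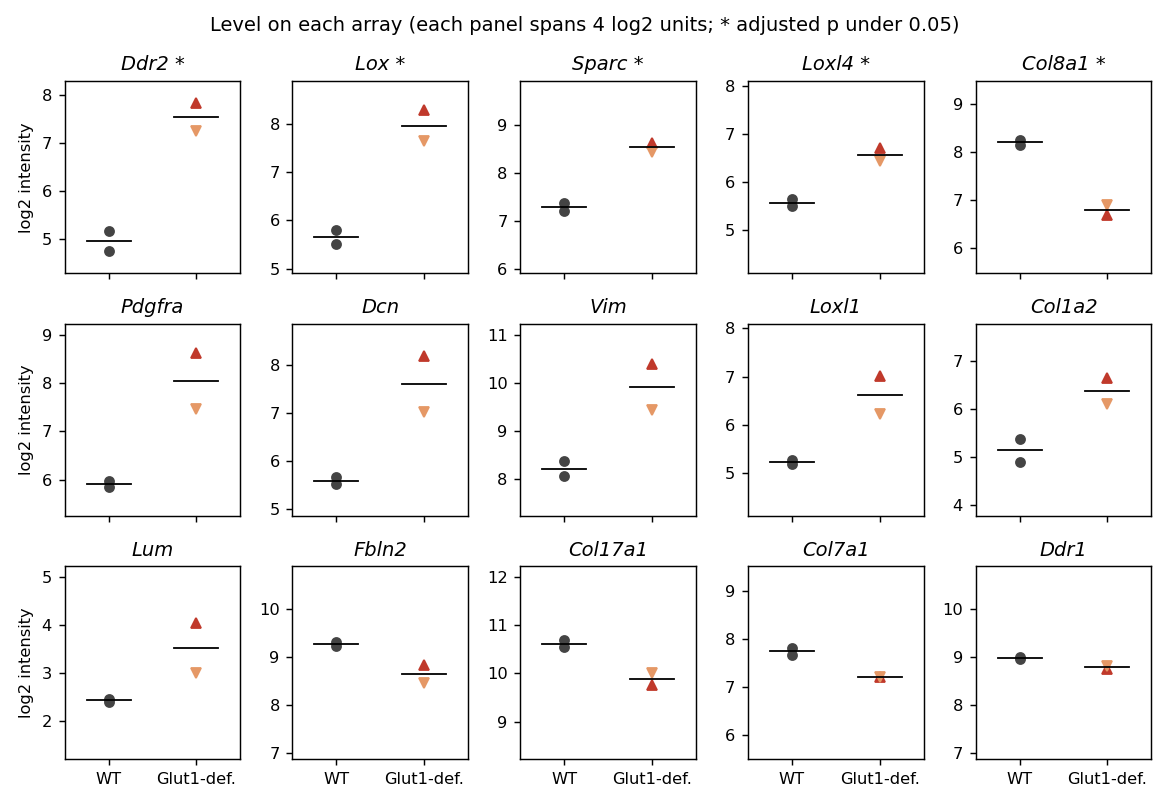
Log2 intensity on each array for 15 of the genes, in panels that each span 4 log2 units; grey circles are WT arrays, dark red upward triangles Glut1-deficient array 1, orange downward triangles array 2, and lines the means. The groups are apart in every panel because only genes without overlap are drawn. For 22 of the 60 genes the groups overlap, and 53.2% of all genes lay wholly on 1 side. The triangles of Pdgfra, Dcn, Vim and Lum are farther from each other than those of Sparc.

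Among the 11 fibril-forming collagens, 0 passed in limma, and 3 were at unadjusted p under 0.05 (27.3%, against 22.2% of all genes). The highest values belonged to types I and V. Col1a1 and Col1a2, which encode the chains of type I collagen, the main protein of dermal fibrils, read 6.00 and 5.44 against 6.92 and 6.50, and 5.37 and 4.91 against 6.64 and 6.10. Their groups did not overlap, and their log2 fold changes were 0.99 (SE 0.237, limma adjusted p = 0.103) and 1.23 (SE 0.242, limma adjusted p = 0.0731). Col5a1, a chain of the type V collagen that nucleates fibrils, read 5.37 and 5.70 against 6.51 and 6.15 (log2 fold change 0.79, limma adjusted p = 0.091). Col3a1, the chain of type III collagen, had a mean of 4.24, below the all-gene median of 4.76, where an array gives no exact fold. It read 3.90 and 4.33 against 4.55 and 4.20, so the groups overlapped and the log2 fold change was 0.26 (95% interval -0.25 to 0.77). Its chromosomal neighbour Col5a2 read 5.19 and 4.84 against 5.75 and 5.18, overlapping as well. The remaining 6 (Col2a1, Col5a3, Col11a1, Col11a2, Col24a1 and Col27a1) had log2 fold changes between -0.14 and 0.09.

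Collagens that attach to fibrils included 1 gene near the threshold. Col12a1, which encodes a long fibril-bridging collagen of dense connective tissue, read 6.80 and 6.54 on the WT arrays and 7.67 and 7.36 on the Glut1-deficient arrays, with a log2 fold change of 0.84 (SE 0.154, limma adjusted p = 0.0642). Col16a1 read 5.67 and 5.65 against 5.40 and 5.03, lower on both arrays, with a log2 difference of -0.44 (limma adjusted p = 0.165). Col14a1, a collagen of dermal fibroblasts, stayed at 3.16 to 3.32 on all 4 arrays, below the all-gene median of 4.76, and its log2 fold change was -0.02. The 9 genes of this class had a median of -0.17, and those not yet named (Col9a1, Col9a2, Col9a3, Col19a1, Col20a1 and Col22a1) lay between -0.21 and 0.001 with overlapping groups. The beaded filament chains Col6a1, Col6a2 and Col6a3, also products of fibroblasts, had log2 fold changes of 0.45, 0.13 and 0.37. Of these, Col6a2 overlapped between the groups, and none of the 6 type VI genes passed in limma. Only Col6a5, at -0.33, was at unadjusted p under 0.05 (16.7% of the 6, against 22.2% of all genes). Col6a4 and Col6a6 were at -0.12 and -0.10. Col26a1, a collagen outside these classes, read 5.37 and 5.46 against 5.87 and 5.84, with a log2 difference of 0.45 (limma adjusted p = 0.0751), and Col28a1 was at -0.14.

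Col8a1, a short-chain collagen that forms hexagonal networks and is not on either cell type list, was the gene with the smallest p of all 60. It read 8.25 and 8.15 on the WT arrays and 6.70 and 6.89 on the Glut1-deficient arrays. Arrays of a genotype differed by at most 0.19, and Col8a1 was 2.65-fold lower (log2 fold change -1.41, SE 0.108, 95% interval -1.68 to -1.13, limma adjusted p = 0.0171). Its partner gene Col8a2 was at 3.64 to 3.70 on all 4 arrays. The basement membrane chains Col4a1 and Col4a2 were close to their WT values: Col4a1 read 7.93 and 7.69 against 8.00 and 7.81, and Col4a2 read 7.92 and 7.88 against 7.99 and 7.97. The 95% intervals of their log2 fold changes ran from -0.24 to 0.42 and from -0.14 to 0.30. Col4a3 and Col4a4, chains of a specialised basement membrane network, were above WT on both arrays at 0.49 and 0.40, and Col10a1 (-0.19) and Col15a1 (0.05) completed the class; none of these 4 passed. Col18a1, the basement membrane collagen from which endostatin is cleaved, read 9.76 and 9.76 against 9.53 and 9.43 (log2 fold change -0.29, limma adjusted p = 0.158).

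The epidermal genes were lower or close to WT, and none of the 5 passed in limma. At unadjusted p under 0.05 there were 3 (60.0%, against 22.2% of all genes). Col17a1, the hemidesmosomal transmembrane collagen of basal keratinocytes, read 10.68 and 10.54 on the WT arrays and 9.76 and 10.01 on the Glut1-deficient arrays, a log2 fold change of -0.73 (SE 0.124, limma adjusted p = 0.0576). Col7a1, the collagen of the anchoring fibrils that hold the epidermis to the dermis, read 7.81 and 7.68 against 7.20 and 7.20, a log2 fold change of -0.54 (SE 0.0927, limma adjusted p = 0.0578). Col17a1 and Col7a1 were thus the nearest of all 60 genes to the threshold without passing, and both of their Glut1-deficient values lay below both WT values. Col4a6 read 3.73 and 3.85 against 3.49 and 3.50 (log2 fold change -0.30, limma adjusted p = 0.151). Its chromosomal neighbour Col4a5, which encodes the partner chain in epithelial basement membranes, read 5.40 and 5.28 against 5.56 and 5.35. Its groups overlapped, and its log2 fold change was 0.11. The 3 transmembrane collagens outside the epidermal list, Col25a1 (0.35), Col23a1 (-0.08) and Col13a1 (-0.03), did not pass.

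Set against the WT mean array by array, the fibroblast genes had a median difference of 1.15 on Glut1-deficient array 1 and 0.61 on array 2, with 21 and 19 of 23 genes above 0. The epidermal genes had medians of -0.30 and -0.29, with 1 of 5 above 0 on each array. Both medians were the values of Col4a6, whose mean of 3.64 lay below the all-gene median of 4.76. The log2 fold changes of the 5 ran from -0.73 to 0.11, and Col4a6 was their median too. The 32 genes of neither list had medians of -0.02 and -0.06, and all genes of -0.004 and -0.01. Over both arrays, the median log2 fold change was 0.86 for the fibroblast genes (3 rose, 0 fell, 20 did not pass) and -0.30 for the epidermal genes (0 rose, 0 fell, 5 did not pass). Within the fibroblast list, the 12 genes that are not collagens had a median of 1.32 and 8 of them reached 1, while the 11 collagens had a median of 0.45 and 1 of them, Col1a2, reached 1. The 2 groups differed in level: 7 of the 11 collagens and 11 of the 12 others had a mean above the all-gene median. For genes below it an array gives no exact fold. These lists were chosen with results of these arrays known, so their directions are a description.

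The Glut1-deficient arrays also differed from each other. Array 1 was above array 2 for 22 of the 23 fibroblast genes (95.7%), for 23 of the 32 genes of neither list (71.9%), for 2 of the 5 epidermal genes and for 50.5% of all genes, and the median gap of the fibroblast genes was 0.42. Fbln1 was the 1 exception, at 7.21 on array 1 and 7.56 on array 2. Between the WT arrays the corresponding count was 15 of 23 (65.2%, against 49.4% of all genes), with a median gap of 0.13. The gap was 1.16 for Pdgfra, 1.16 for Dcn, 1.02 for Lum and 0.96 for Vim, against 0.65 for Lox, 0.58 for Ddr2, 0.27 for Loxl4 and 0.17 for Sparc. The log2 fold change of Dcn was 1.43 without Glut1-deficient array 1 and 2.59 without array 2, that of Pdgfra 1.57 and 2.73, and that of Lum 0.57 and 1.60. For Sparc the same values were 1.16 and 1.33.

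**Figure D3:**
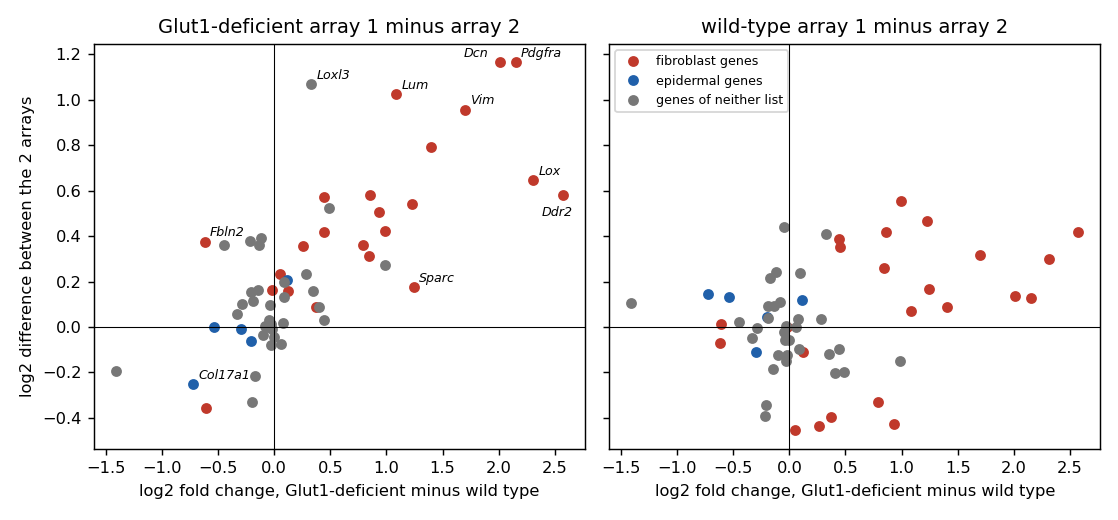
Log2 difference between array 1 and array 2 of the Glut1-deficient genotype (left) and of the WT genotype (right), vertical axis, against the log2 fold change of each of the 60 genes, horizontal axis; red points are fibroblast genes, blue epidermal genes and grey genes of neither list. The red points of Pdgfra, Dcn, Lum and Vim lie highest on the left with Loxl3, while Lox, Ddr2 and Sparc have larger fold changes than Lum with smaller gaps.

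Genes of collagen folding, secretion and processing had a median close to 0, with more genes lower than higher. Of 23 tested, limma called 1 higher and 1 lower (8.70%, against 2.84% of all genes). The median log2 fold change of the 23 was -0.08, and 15 were negative. Both Glut1-deficient arrays lay below both WT arrays for 10 (43.5%, against 27.7% of all genes) and above both for 7 (30.4%, against 25.5%). P3h2, a prolyl 3-hydroxylase of collagen, read 7.51 and 7.45 on the WT arrays and 8.16 and 8.18 on the Glut1-deficient arrays and rose 1.61-fold (limma adjusted p = 0.034). Bmp1, the proteinase that removes the C-terminal propeptide of fibrillar procollagens, read 9.35 and 9.38 against 8.61 and 8.70 and was 1.63-fold lower (limma adjusted p = 0.034). Plod2, a lysyl hydroxylase that prepares telopeptides for crosslinking, was at -0.58 (limma adjusted p = 0.0522), Pcolce, an enhancer of Bmp1, at 0.94 (limma adjusted p = 0.0809), and Tll1, a proteinase of the Bmp1 family, at -0.62 (limma adjusted p = 0.0876). Of the collagen receptors and uptake genes, 0 of 5 passed in limma, and 2 were at unadjusted p under 0.05 (40.0%, against 22.2% of all genes). Itga2, the collagen-binding integrin chain of keratinocytes, read 11.71 and 11.81 against 12.10 and 12.17. Mrc2, an endocytic collagen receptor, read 4.62 and 4.54 against 5.11 and 5.18.

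Of the 18 elastic fibre and small proteoglycan genes measured, limma called 1 higher (5.56%, against 1.79% of all genes) and 0 lower, with a median of 0.05. The gene that rose was Bgn (biglycan), a proteoglycan related to decorin, which read 8.33 and 8.64 on the WT arrays and 11.02 and 10.44 on the Glut1-deficient arrays, 4.74-fold higher (log2 fold change 2.24, SE 0.226, limma adjusted p = 0.0237). Fbln5, a fibulin of elastic fibres, was at 1.25 on the log2 scale, Mfap2 at 0.50 and Ecm1, an epidermal matrix protein, at -0.59, and these 3 did not pass. Among 12 mesenchymal transcription factors, 2 rose (16.7%, against 1.79% of all genes), 0 fell and 10 did not pass (median 0.22). Twist2, a factor of dermal fibroblast precursors, read 2.78 and 3.05 against 5.43 and 5.20 and rose by 2.40 on the log2 scale (limma adjusted p = 0.0129). Tbx15, a factor of dorsal dermis, read 3.70 and 3.77 against 5.55 and 4.91 and rose by 1.50 (limma adjusted p = 0.0445). The WT values of both lay below the all-gene median of 4.76, where an array gives no exact fold. Twist1 (log2 fold change 0.64, limma adjusted p = 0.0528), Foxf1 (0.27) and Prrx1 (0.90), the next by p, did not pass.

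Of the 15 fibroblast markers outside the gene set, 4 rose (26.7%, against 1.79% of all genes), 0 fell and 11 did not pass. For 10 (66.7%, against 25.5% of all genes) both Glut1-deficient arrays lay above both WT arrays, and 5 overlapped. These markers had a median of 0.72, with 0.81 for Glut1-deficient array 1 and 0.49 for array 2. Besides Twist2, those that rose were Crabp1 (3.40-fold), a retinoid-binding protein of dermal papilla cells, the mesenchymal cadherin Cdh11 (3.04-fold) and the microfibril protein Mfap5 (0.99 on the log2 scale). The lowest marker, Fap, read 3.38 and 3.21 against 3.21 and 3.38. On Glut1-deficient array 1, 12 of the 15 markers were above array 2, as were 22 of the 23 fibroblast genes. Of the 15, 7 had a mean below the median of all genes. Of 7 melanocyte markers 4 rose (57.1%, against 1.79% of all genes), 0 fell and 3 did not pass (median 0.85). Their medians of 0.74 on array 1 and 0.95 on array 2 were in the reverse order of those of the fibroblast markers. Both medians were the values of Mlana, and 3 of the 7 markers were higher on array 1 than on array 2 (42.9%, against 50.5% of all genes). Those that rose were Dct (3.42-fold), Pmel (3.24-fold), Tyrp1 (2.49-fold) and Mlana (1.80-fold), all pigment cell proteins. Of the other 3, Mitf was at 0.29 on the log2 scale and Tyr at 0.05 with overlapping groups. Sox10 was at -0.14, with both Glut1-deficient arrays below both WT arrays. Of 10 keratinocyte markers 0 passed (limma; 5 at unadjusted p under 0.05), with a median of -0.01 and a summed intensity of 20078 to 20693 on the Glut1-deficient arrays against 20990 to 21241. Of 10 pericyte and smooth muscle markers Acta2, smooth muscle actin, was 1.64-fold lower and the other 9 did not pass (median -0.16). Of 6 adipocyte markers Fabp4, a fatty acid-binding protein, rose 2.56-fold and 5 did not pass. None of 8 endothelial, 7 macrophage and Langerhans cell and 4 Schwann cell markers passed (limma; 1, 3 and 1 at unadjusted p under 0.05), with medians of 0.01, -0.09 and -0.02.

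**Figure D4:**
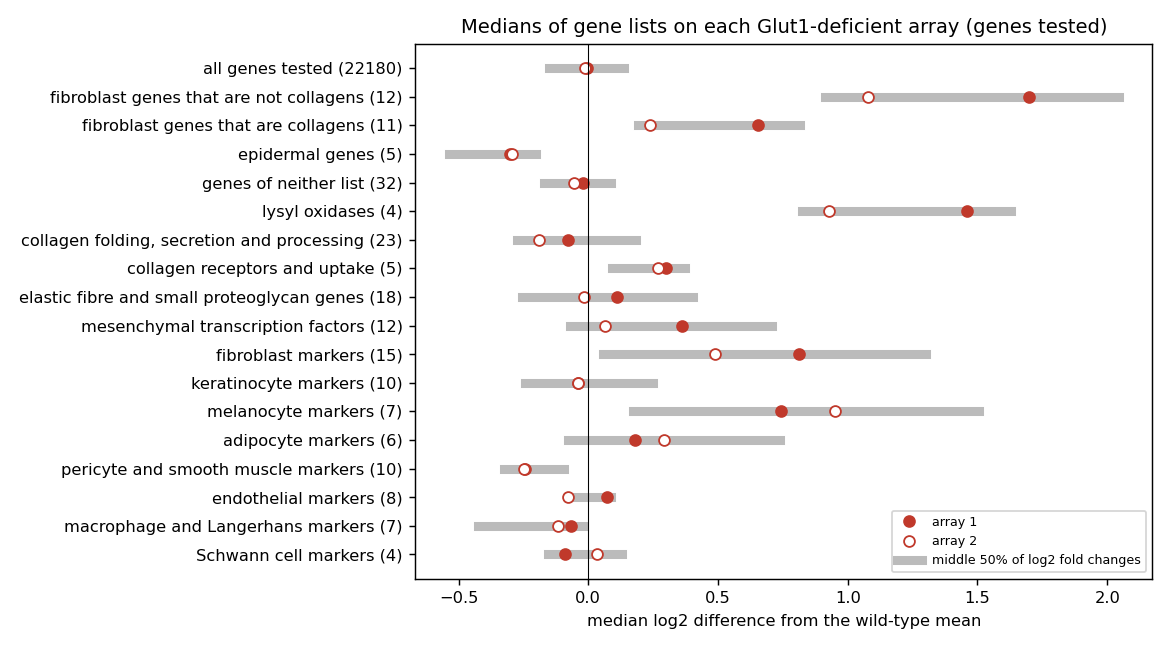
Median log2 difference of each gene list from the WT mean on Glut1-deficient array 1 (filled) and array 2 (open), with grey bars for the middle 50% of the list's log2 fold changes and the number of genes tested in brackets. Fibroblast genes and markers lie right of 0 with array 1 ahead, and keratinocyte markers lie near 0. The melanocyte median has array 2 ahead, and on both arrays it is the value of Mlana.

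Genes that neighbour each other on a chromosome were compared, since several collagen chains lie side by side (order of protein-coding genes in the RefSeq gene table of GRCm38.p6). Of the 9 neighbouring pairs among the 60 genes, 0 had a gene that passed (limma). Dcn and Lum, neighbours that are both fibroblast genes, were at log2 fold changes of 2.01 and 1.08. Col4a3 and Col4a4 were at 0.49 and 0.40, and Col4a1 and Col4a2 at 0.09 and 0.08. Col4a5 and Col4a6, which lie head to head, were on opposite sides of 0. Of the genes with a further row of their own symbol, Col1a2 (0.43), Col5a1 (0.08), Col6a1 (0.24) and Vim (1.49) had the sign of the brighter row there, and Ddr1 had the opposite sign (0.18, against -0.20 on the brighter row).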

How the data were processed

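Values are the deposited log2 intensities, 1 per transcript cluster; the submitters' processing notes name Expression Console and RMA as the authors' tools, and neither their versions nor a genome build. RMA gives all arrays like distributions, so a change is relative to other genes. Of 41345 rows, 23521 carried 1 gene symbol in the platform annotation, 1814 several and 16010 none; the brightest single-symbol row stood for each of 22180 genes. All 60 genes matched the RefSeq gene table.

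limma 3.58.1 (R 4.3.3; lmFit, eBayes, 2 residual degrees of freedom, prior worth 2.95) compared Glut1-deficient with wild type, two-sided, Benjamini-Hochberg over all genes. An exact permutation test of 2 against 2 arrays cannot go below p = 0.333. The fit was tested on simulated data.

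The genes and lists were chosen with earlier results of these data known, and the fibroblast and epidermal lists rest on textbook knowledge. Described with the value on each array were genes that passed, epidermal genes, genes with an absolute log2 fold change of at least 1 and the 10 brightest (22 in all); other examples had the smallest p of their class or, among markers, were those that passed, the 3 brightest or the dimmest. Loxl3, Col3a1, Col14a1, Mitf and Sox10 were singled out after their values were seen. Alternatives were an intensity trend, median centring, a filter on dim genes, the mean of a gene's rows, each array left out, a replicate block, a threshold of 0.1 and every row as its own test.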

Additional observations from a re-analysis of the deposited data

How the results depend on the processing

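Of the 60 genes, 5 passed in the fit reported, and the same 5 passed with arrays centred on their medians and with the mean of a gene's rows. The count was 21 when the prior variance followed intensity, 19 among genes above the median level and 16 at a threshold of 0.1 (12 rises, 4 falls; 8.36% of all genes passed at that threshold), and each of these included the 5. It was 2 (Ddr2 and Lox) with the replicate number as a replicate block, and 0 with every row as its own test (limma, 29 rows of these genes at unadjusted p under 0.05) or with 1 array left out (lowest 0, highest 0). Over all genes, 630 calls became 2671 with the intensity trend, 2327 above the median level, 1855 at 0.1, 37 with the replicate block, 0 with every row tested (limma, 6694 rows at unadjusted p under 0.05) and 0 (lowest and highest) with 1 array left out. Same-numbered arrays did not deviate together over all genes (r = -0.03), which cannot show what smaller sets of genes share. Whether same-numbered arrays had a batch in common is not in the labels and was not tested. Among 22 named genes, 10 gained a call under the intensity trend and 9 under the filter. The median of the fibroblast genes ran from 0.61 to 1.15 with 1 array left out. That of the epidermal genes was -0.37 among genes above the median level, where 4 remain, and ran from -0.35 to -0.24 with 1 array left out. The log2 fold change of Col4a1 turned to -0.027 without WT array 2 and -0.006 without Glut1-deficient array 1, and ran up to 0.21.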
